A study of Mus musculus with 4 samples.

Results

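The genes described here encode the nuclear part of the mitochondrial respiratory chain in MB49 tumours of male and female mice. They were taken by name: every gene in the deposited lists whose symbol starts with Ndufa, Ndufb, Ndufc, Ndufs, Ndufv, Sdh, Uqcr, Cox4i, Cox5, Cox6, Cox7, Cox8 or Atp5 and that had at least 20 unique molecular identifiers (UMIs, each standing for 1 captured mRNA molecule) over the 4 libraries. The prefixes took in 102 of 30408 genes and all 102 reached the threshold, the lowest being the pseudogene Atp5l2-ps with 74 UMIs, so that none lay just outside it. By function, 81 are subunits: 36 of complex I, 4 of complex II, 8 of complex III, 18 of complex IV and 15 of complex V. Another 13 are assembly factors or relatives and 8 are processed pseudogenes. Ndufa4 and its paralog Ndufa4l2 were counted with complex IV, where the Ndufa4 protein sits despite its symbol. The 102 genes held 2894993 UMIs in all, of which 2821736 belonged to subunits.

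MB49 is a bladder carcinoma line that arose in a male mouse. The study grew it as tumours in male and in female mice, sorted live cells by the pan-leukocyte surface protein CD45, and made 1 library on the BD Rhapsody microwell system for each combination of sex and CD45 fraction. The labels name no treatment, strain or age, and do not say how many animals or tumours went into a library. With 1 library per combination no test between sexes was possible, and host sex cannot be told apart from any other difference between 2 libraries.

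Libraries held 5771 (male, CD45-positive), 5169 (female, CD45-positive), 6023 (male, CD45-negative) and 5152 (female, CD45-negative) cell barcodes, with 37705608 to 62273035 UMIs. Of these, 19375 cells passed the quality filter and 15336 (79.2%) were placed in 1 of 13 classes by counts of detected marker genes. Barcodes are serial numbers within each library, so shared barcodes could not be counted. Host cells matched their labels: phagocytes of the male library had 0 UMIs of Xist and 3354 of the Y-linked Ddx3y, those of the female library 4695 and 1. Tumour cells carried Ddx3y in both libraries, at 10.1 CPM (UMIs per 1000000 UMIs of the class, the unit of every level below) in males and 16.8 CPM in females. Phagocyte C1q mRNA was found in every other class of the CD45-positive libraries, at 3.32% to 5.70% of its phagocyte level in the male library and 7.21% to 13.9% in the female one, so these classes also held some phagocyte RNA, free or mixed in. Requiring 1 more marker would remove 1316 of 4738 male and 595 of 3407 female tumour cells, 190 and 224 phagocytes, and 89 and 35 neutrophils.

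The respiratory chain passes electrons from NADH (complex I) and succinate (complex II) through complex III to oxygen at complex IV, and complex V uses the proton gradient that this builds to make ATP. Complex II is encoded wholly in the nucleus and also works in the tricarboxylic acid cycle. The other complexes combine many nuclear subunits with a few that the mitochondrial genome encodes. Several complex IV subunits come as isoforms that differ between tissues, among them forms typical of muscle, lung or testis, and neutrophils are known for a metabolism that leans on glycolysis.

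To show how the start regions of these genes look, RefSeq promoter windows (250 bases before to 50 after the annotated start, GRCm38.p6) were matched by symbol for 77 of the 102 genes, 66 of them subunits. The letters GCGCA and GCGC with any 1 base between them, the core of the motif of nuclear respiratory factor 1 (NRF1), were found on either strand in 17 of the 66 subunit windows (25.8%), against 5.19% of the windows of all 27025 genes and 10.8% of those of 10485 genes with at least 100 UMIs here. CCGGAAG, the core of the ETS motif that GABP, also called nuclear respiratory factor 2, binds, was found in 24.2% of subunit windows, against 9.93% and 19.3%. TATAA was found in 15.2%, against 28.0% and 16.9%, and CCAAT in 43.9%, against 41.1% and 42.7%. Subunit windows held a median of 19 CpG dinucleotides, close to the 20 of genes with at least 100 UMIs. A match describes the letters and does not show binding. The complex IV genes Cox6a1, Cox8a and Cox7b2 are shown because the first pair is among the complex IV genes with most UMIs and the last was found mainly in tumour cells. Capitals mark NRF1 and ETS letters in Cox6a1 (2 and 1 matches) and ETS letters in Cox8a (2 matches). In Cox7b2 they mark TATAA (1 match) and CCAAT (3 matches), all on the reverse strand. The windows lie at chr5:115348909-115349208, chr19:7217567-7217866 and chr5:71548156-71548455, all on the minus strand, and are printed 5′ to 3′ along the gene.
Cox6a1: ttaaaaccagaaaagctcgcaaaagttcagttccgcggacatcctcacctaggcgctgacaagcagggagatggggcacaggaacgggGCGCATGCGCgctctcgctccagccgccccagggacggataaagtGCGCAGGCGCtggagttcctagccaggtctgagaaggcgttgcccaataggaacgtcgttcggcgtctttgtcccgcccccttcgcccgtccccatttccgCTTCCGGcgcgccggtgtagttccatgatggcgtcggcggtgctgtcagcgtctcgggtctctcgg
Cox8a: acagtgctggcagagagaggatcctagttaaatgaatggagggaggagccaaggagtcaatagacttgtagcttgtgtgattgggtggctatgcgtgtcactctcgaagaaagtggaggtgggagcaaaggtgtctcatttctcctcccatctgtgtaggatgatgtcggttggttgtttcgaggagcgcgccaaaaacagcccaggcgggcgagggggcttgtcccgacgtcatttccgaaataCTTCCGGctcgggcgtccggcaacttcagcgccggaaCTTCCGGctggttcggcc
Cox7b2: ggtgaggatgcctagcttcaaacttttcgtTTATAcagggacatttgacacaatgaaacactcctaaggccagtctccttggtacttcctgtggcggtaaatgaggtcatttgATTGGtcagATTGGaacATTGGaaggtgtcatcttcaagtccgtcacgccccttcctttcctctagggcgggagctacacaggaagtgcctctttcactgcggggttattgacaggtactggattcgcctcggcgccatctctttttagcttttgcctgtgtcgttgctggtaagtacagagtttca

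Summed over the 102 genes, the chain took 0.634% to 1.81% of the UMIs of a class. Tumour cells of the male library had the highest level, 18098 CPM, and those of the female library 14729 CPM. Neutrophils were lowest in both, with 6673.5 CPM (95% exact Poisson interval 6506 to 6845) in males and 6340.3 CPM (6012 to 6682) in females. Intervals here and below cover counting error only, since no spread between animals can be had. CD8 T cells, which kill infected and tumour cells, followed the tumour cells in males with 16221 CPM and had 15159 CPM in females. In males the intervals of CD8 T cells, regulatory T cells (16132 CPM), type 1 conventional dendritic cells (cDC1, 16049 CPM) and NK cells (16015 CPM) overlapped, so these were not ordered. In females the interval of plasmacytoid dendritic cells (15493 CPM, 20 cells) overlapped that of CD8 T cells. Mononuclear phagocytes (mainly macrophages and monocytes) held 14184 CPM in males and 14550.1 CPM in females. Their gate also took in 119 male and 111 female cells of a cluster led by Cd209a, which may be type 2 dendritic cells. Mature dendritic cells, fibroblasts and mast cells or basophils lay lower, between 8688 and 11701 CPM, all above the neutrophils. The female cDC1 and mast cell values rest on 2 and 4 cells.

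**Figure D1:**
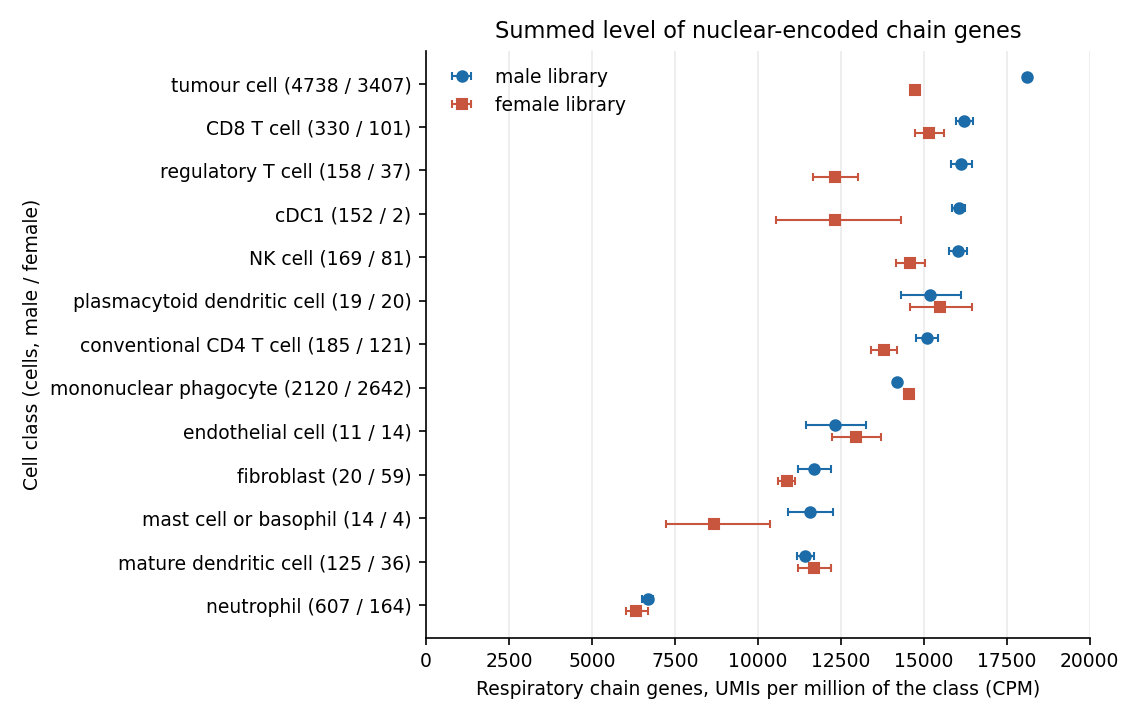
Summed level of the chain genes in each cell class, in CPM, for the male (circles) and female (squares) libraries; bars are exact 95% Poisson intervals and numbers in brackets are cells. Neutrophils, at 6673.5 and 6340.3 CPM, lie apart from every other class, and tumour cells differ most clearly between libraries among the large classes.

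Neutrophils, short-lived phagocytic granulocytes, differed from the mononuclear phagocytes of the same libraries in nearly the whole chain. The summed level was 0.471 of that in phagocytes in males (0.459 to 0.483, exact binomial interval) and 0.436 in females (0.413 to 0.459). Of 92 chain genes with at least 100 UMIs in neutrophils and phagocytes together in each sex, 72 were at least 1.5-fold lower in neutrophils in both sexes, where 37.8% of all genes tested were. A single gene, the complex I assembly factor Ndufaf7, was at least 1.5-fold higher in both, where 10.5% of all genes were. It rests on 15 and 2 neutrophil UMIs. The median log2 ratio was -1.37 (males) and -1.14 (females) for chain genes and -0.90 and -0.42 for all genes tested, with counts of 0 set to 3. Among the 72 genes, Sdhaf4, Cox4i2, Uqcrh-ps2 and Uqcr11 had 0 UMIs in 1 neutrophil library. The low level was not particular to the chain. Ribosomal protein genes were at 17796 and 17739 CPM in neutrophils (males, then females) against 48664 and 52232.5 CPM in phagocytes. This set of 333 genes was taken by symbol (Rpl or Rps with a digit, Rplp or Rpsa). It therefore also takes in pseudogenes and kinase genes with such symbols, here and below. Mitochondrial import and carrier genes were at 1488 and 1477 against 3235 and 3430 CPM, and tricarboxylic acid cycle genes at 559 and 445 against 1116 and 1117 CPM. Glycolysis genes were at 4861 and 5790 against 4770 and 6920 CPM, and hypoxia genes were higher in neutrophils.

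Every complex took part. Those lower in both sexes were 28 of 36 subunits of complex I, 4 of 4 of complex II, 8 of 8 of complex III, 11 of 14 tested of complex IV and 13 of 15 of complex V. Summed by complex, the ratios to phagocytes in males and females were 0.428 and 0.449 for complex I, 0.376 and 0.371 for complex II, 0.434 and 0.394 for complex III, and 0.406 and 0.384 for complex V. Complex IV lay higher, at 0.605 (0.579 to 0.631) and 0.495 (0.451 to 0.544). It made up 36.2% and 32.9% of subunit UMIs in neutrophils, against 28.1% and 28.8% in phagocytes.

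Atp5a1, the catalytic-head alpha subunit of ATP synthase, was at 190.2 and 168 CPM in neutrophils (males, then females) and 681 and 630.2 CPM in phagocytes. Atp5g3, which codes for the c subunit of the rotor ring, was at 234 and 223 CPM against 659 and 695 CPM. Ndufa9, a complex I subunit, had 17.8 and 13.6 CPM against 80.2 and 79.9 CPM, the female value resting on 3 UMIs. In all 3 genes both neutrophil values lay below both phagocyte values.
The exception was Cox8a, a small complex IV subunit, with 614 and 449.96 CPM in neutrophils and 604 and 581 CPM in phagocytes, so that the male neutrophil value lay above both phagocyte values. Without Cox8a, complex IV had ratios of 0.529 (0.503 to 0.556) and 0.450 (0.404 to 0.499). Cox7a2, the general form of subunit VIIa, was at 149 and 177 CPM against 190 and 204 CPM. The complex II assembly factors Sdhaf1 and Sdhaf2 were also within 1.5-fold of phagocytes in both sexes. Sdhaf2 was named after its values were seen.

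Depth differed between these classes. Neutrophils had medians of 1266 and 1233.5 UMIs per cell, phagocytes 10592 and 8289.5. Neutrophils contained C1q mRNA at 5.70% and 13.9% of the phagocyte level, and the part of that RNA in their values was not tested. Leaving out the 5% of neutrophils with most UMIs lowered the male level to 5431 CPM and the ratio to 0.388, and the female values to 5897 CPM and 0.411. Thinning every cell to 1000 UMIs gave ratios of 0.410 and 0.446.

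**Figure D2:**
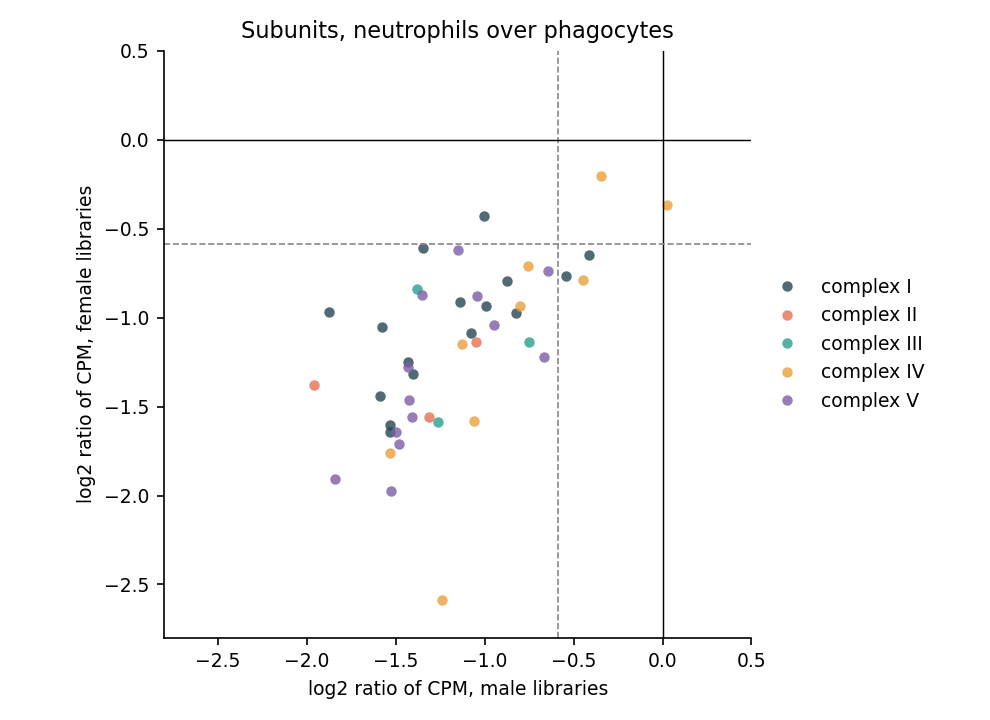
Log2 ratio of CPM in neutrophils over mononuclear phagocytes for the 44 subunits with at least 10 UMIs in each neutrophil library, males on the x axis and females on the y axis, coloured by complex; dashed lines mark a 1.5-fold lower level. The filter keeps subunits with enough UMIs to place them, and 38 of the 44 lie past both dashed lines, with the complex IV genes Cox8a and Cox7a2 nearest to 0.

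Mature dendritic cells, which carry antigen to lymph nodes, had a chain level of 0.806 (0.788 to 0.824) of that of phagocytes in males and 0.804 (0.770 to 0.839) in females. The reduction was uneven over complexes. Complex II was at 0.613 and 0.602, complex I at 0.737 and 0.748, and complex V at 0.732 and 0.721, while complex III was at 0.986 (0.921 to 1.05) and 1.01 (0.887 to 1.14). Lower in both sexes by 1.5-fold were 21 of 92 chain genes, where 21.6% of all genes were, and 3 were higher, where 13.5% were, so the first count matched the background and the second lay below it. The 3 were Cox7a2l, Sdhaf1 and the pseudogene Uqcrh-ps1. Cox7a2l, whose protein joins complexes III and IV into a supercomplex, had its largest values of 11 classes here, 437 and 470.5 CPM, with intervals that overlapped those of plasmacytoid dendritic cells in both sexes and of CD8 and CD4 T cells in females, against 225 and 247 CPM in phagocytes and 77.8 and 72.7 CPM in neutrophils. Sdhaf1, which helps insert iron-sulfur clusters into complex II, was at 102 and 104 CPM against 24.2 and 15.2 CPM. The catalytic iron-sulfur subunit of that complex, Sdhb, was at 60.3 and 43.8 CPM against 146 and 131 CPM. Sdhb was named after its values were seen.

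CD8 T cells had a summed chain level 1.14 (1.13 to 1.16) times that of phagocytes in males and 1.04 (1.01 to 1.07) in females, with complex II at 0.778 (0.713 to 0.848) and 0.731 (0.614 to 0.864). The membrane anchors Sdhc and Sdhd held this difference: Sdhc had 85.8 and 57.3 CPM against 177 and 142 CPM, and Sdhd 145 and 131 CPM against 229 and 214 CPM. Of 92 genes, 3 were at least 1.5-fold lower in both sexes (background 18.7%) and 6 higher (background 24.1%). Among the 6, Uqcrh, a hinge protein of complex III, was at 636 and 620.4 CPM in CD8 T cells and 365 and 383 CPM in phagocytes. NK cells had the largest Ndufa4 values of 11 classes, 319.6 and 220.5 CPM, against 51.2 and 22.7 CPM in neutrophils, but in females the interval overlapped those of CD8 T cells (215.8 CPM) and plasmacytoid dendritic cells (212 CPM), among others. Uqcrfs1, the Rieske iron-sulfur protein of complex III, was at 245 and 192 CPM in regulatory T cells, against 66.7 and 54.5 CPM in neutrophils. In females CD8 T cells and mature dendritic cells had 192 and 191 CPM with overlapping intervals, and in males the interval also overlapped that of CD8 T cells, so these classes were not ordered.

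Tumour cells were sorted in the other CD45 fraction, so the sort and the cell type cannot be told apart in their comparison with phagocytes. Their chain level was 1.28 times that of phagocytes in males and 1.01 in females. Of 95 genes tested, 13 were at least 1.5-fold higher in both sexes, where 38.8% of all genes were, and 2 were lower, where 17.6% were. Assembly factors or relatives made up 8 of the 13: Ndufaf1, Ndufaf2, Ndufaf5, Ndufaf6, Ndufaf7, Ndufaf8, Sdhaf3 and Atp5s. Ndufaf2, which acts late in complex I assembly, was at 54.1 and 32.2 CPM against 17.3 and 16.2 CPM. Atp5f1, the b subunit of the outer stalk of ATP synthase, was at 547 and 456 CPM against 293 and 267 CPM. Atp5b, its catalytic beta subunit, was at 506 and 538 CPM against 375 and 375 CPM. Ndufb9, an accessory complex I subunit, was at 167 and 129.9 CPM against 54.0 and 66.2 CPM. The genes lower in tumour cells were Cox5a, at 22.2 and 22.5 CPM against 64.8 and 62.7 CPM, and Cox4i2.

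Of the 102 genes, 20 had the same highest class in both sexes over the 11 classes with at least 10 cells in each library, with at least 20 UMIs there, where 20.2% of all genes with at least 20 UMIs did, so the count is near the background. For 11 of them it was the tumour cell, where it was for 8.14% of all genes. For 3 it was the NK cell and for 2 the phagocyte, and the other 4 peaked in mature dendritic, plasmacytoid dendritic, regulatory T and endothelial cells. No share over all genes was taken for these other classes, so their counts are not read as a result. The highest class was taken from the values alone, and neighbours can overlap within counting error. The widest ranges belonged to isoforms of complex IV.

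Cox6a2, at chr7:128205435-128206387 on the minus strand and known as the heart and skeletal muscle form of subunit VIa, was the leading form in plasmacytoid dendritic cells, the interferon-producing dendritic cells. It had 88 UMIs in 19 male cells (1214 CPM, interval 974 to 1496) and 128 UMIs in 20 female cells (1809 CPM, interval 1509.5 to 2151). There it gave 71.5% (62.7% to 79.3%, exact Clopper-Pearson) and 85.9% (79.3% to 91.1%) of the UMIs of Cox6a1 and Cox6a2 together, while Cox6a1 itself was at 483 and 297 CPM. It was detected in 15 of 19 and 17 of 20 of these cells, with at most 12 and 13 UMIs in a cell, so that no single cell carried it. In phagocytes, which were deeper, 44 of 2120 and 52 of 2642 cells had a UMI, at 2.09 and 2.19 CPM. Tumour cells had 0.377 and 2.52 CPM. Conventional CD4 T cells had 0 UMIs in 185 and 121 cells, which allows up to 5.78 and 8.45 CPM by a limit of 3 counts. The cluster that holds most plasmacytoid dendritic cells is led by the immunoglobulin genes Igkc and Ighm next to the defining markers Siglech and Ccr9. The part of any other cell in this value was not tested.

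Cox7b2, at chr5:71442824-71548205 on the minus strand and known as the testis form of subunit VIIb, was found mainly in tumour cells, at 88.3 CPM in males and 72.5 CPM in females. It gave 25.9% and 25.8% of the UMIs of Cox7b and Cox7b2 together, the same share in both libraries. Phagocytes had 8 and 12 UMIs, or 0.349 and 0.469 CPM. Fibroblasts had 3 and 11 UMIs (16.6 and 17.2 CPM) and also contained the tumour keratins Krt8 and Krt18 at 426 and 685 CPM, against 2249 and 2825 CPM in tumour cells; the part of tumour RNA in their value was not tested. In tumour cells Cox7b2 followed the clusters, from 52.1 CPM in the female cells of cluster 19 to 109 CPM in the male cells of cluster 18, and within a cluster the libraries differed less than the clusters did.

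Cox4i2, a form of subunit IV linked to lung and low oxygen, was at 11.03 and 8.59 CPM in phagocytes (253 and 220 UMIs), where it made up 1.82% and 1.26% of the UMIs of Cox4i1 and Cox4i2. In tumour cells it had 11 and 2 UMIs, or 0.189 and 0.0498 CPM, at a comparable depth per cell. Ndufa4l2, a paralog of Ndufa4 known as induced by low oxygen, had 4 and 31 UMIs in fibroblasts (22.1 and 48.5 CPM) and 0.651 and 0.648 CPM in tumour cells. Cox7a1, the muscle form of subunit VIIa, was at 10.8 and 16.6 CPM in phagocytes and 9.86 and 9.79 CPM in tumour cells. Cox6b2, the testis form of subunit VIb, had 79 and 55 UMIs in phagocytes and 4 and 2 in tumour cells. Cox8b, Cox8c, Ndufb4b and Ndufb4c did not occur among the 102 genes. Among the c subunit genes of ATP synthase, whose mature proteins are identical, Atp5g1 was at 449.97 and 322 CPM in tumour cells and 94.5 and 77.3 CPM in neutrophils, and Atp5g2 stayed at or below 28.3 CPM in the 11 classes.

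**Figure D3:**
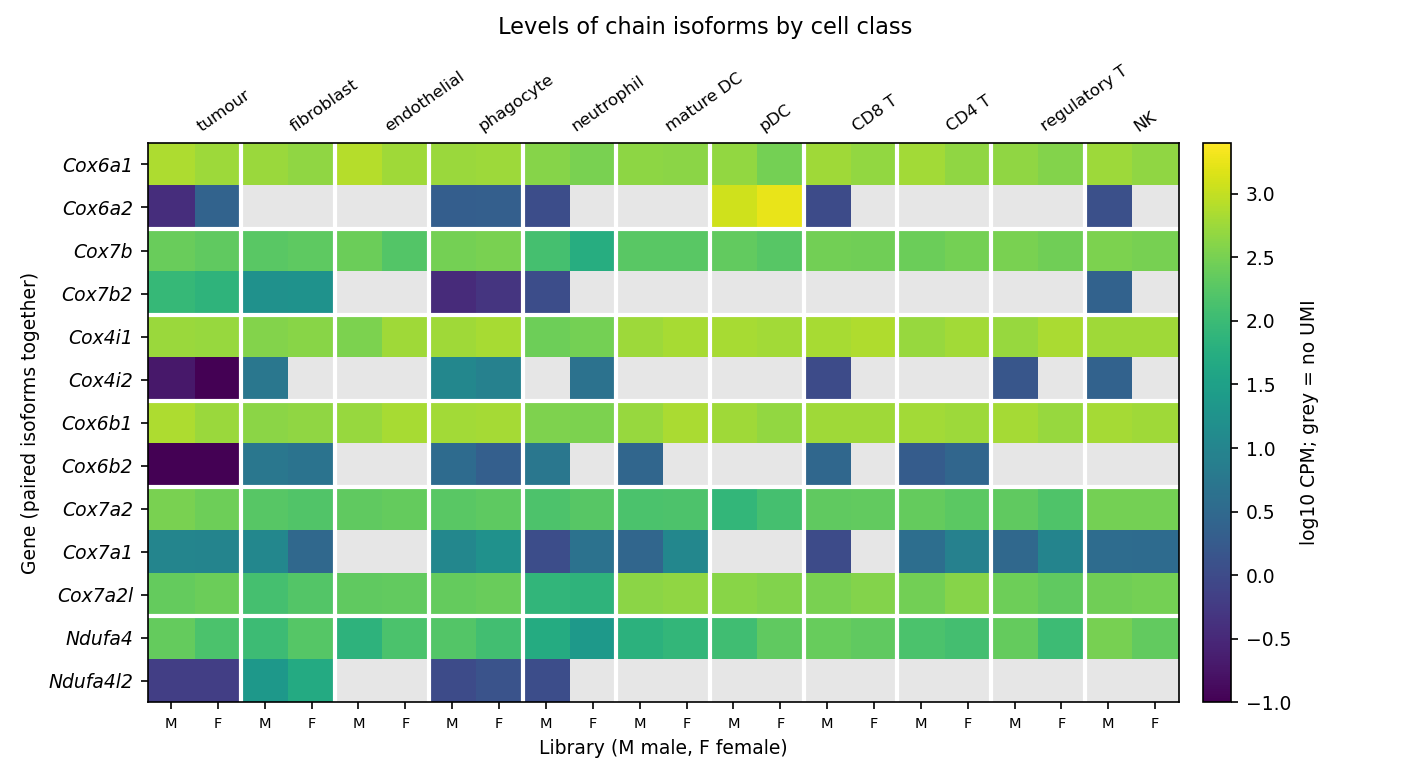
Level (log10 CPM, colour) of 13 complex IV genes, paired by subunit, in 11 cell classes of the male (M) and female (F) libraries; grey cells had no UMI, and the 2 classes with under 10 cells in the female library are left out. Cox6a2 stands out in plasmacytoid dendritic cells (1214 and 1809 CPM), Cox7b2 in tumour cells (88.3 and 72.5 CPM) and Cox4i2 in phagocytes (11.03 and 8.59 CPM).

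Tumour cells of the male library had a higher chain level than those of the female library. The sum over the 102 genes was 18098 CPM against 14729 CPM, a ratio of 1.23 (1.22 to 1.23). Of 98 genes with at least 100 UMIs, 86 had a ratio above 1, where 51.5% of all genes did, and 74 had an interval wholly above 1, where 34% did. An interval wholly below 1 was found for 7, where 31.6% of all genes had one. The median log2 ratio was 0.29 for chain genes and 0.01 for all 12866 genes tested. Past 1.5-fold lay 10 genes in favour of the male library, where 7.23% of all genes did, and 1 in favour of the female library, where 6.9% did. The shift was therefore broad and small for single genes.

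By complex, the ratio was 1.27 (1.26 to 1.28) for complex I, 1.03 (1.01 to 1.05) for complex II, 1.18 (1.17 to 1.19) for complex III, 1.23 (1.22 to 1.24) for complex IV and 1.23 (1.22 to 1.24) for complex V. Assembly factors gave 1.22 (1.196 to 1.2503). Pseudogenes gave 1.43 (1.37 to 1.49), and their reads cannot be told apart with certainty from those of the near-identical parent genes. Complex II alone lay close to 1.

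In complex I, Ndufa2 had 464 CPM (male) and 375 CPM (female), Ndufv3 had 334 and 251 CPM, and Ndufa1 had 260.2 and 190.3 CPM, all accessory subunits with most UMIs in their complex. Ndufb10, an accessory subunit of the membrane arm at chr17:24722060-24724478, showed the largest difference among the complex I subunits, with 162 against 95.3 CPM, a ratio of 1.70 (1.63 to 1.76). Ndufs1, a core subunit that carries electrons, went the other way, with 58.5 against 69.2 CPM (0.845, 0.803 to 0.889).
The complex II genes hardly differed: Sdha, the flavoprotein, had 161 and 156 CPM, Sdhb 116 and 118 CPM, Sdhc 149.8 and 147 CPM and Sdhd 229 and 215 CPM. Their ratios ran from 0.988 to 1.06.
In complex III, Uqcrh had 473 and 335 CPM (ratio 1.41), Uqcrq 282 and 265 CPM (1.06) and Uqcrfs1 189 and 171 CPM (1.11). Uqcrc2, a core protein, lay lower in the male library, at 62.4 against 68.8 CPM (0.906, 0.862 to 0.952). Members of one complex thus did not share one ratio.

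In complex IV, Cox6b1 had 714 and 546 CPM, Cox6a1 735 and 567 CPM and Cox8a 668 and 483 CPM, with ratios of 1.31, 1.297 and 1.38. Ndufa4, at chr6:11900292-11907497 on the minus strand, had 229.6 against 140.1 CPM, a ratio of 1.64 (1.59 to 1.69). Cox7a2l lay lower in the male library, at 227 against 255 CPM (0.890, 0.868 to 0.914). Cox6a2 was the 1 gene past 1.5-fold in favour of the female library, with 22 UMIs in 18 cells against 101 UMIs in 62 cells, a ratio of 0.150 (0.0900 to 0.240). The male value lay below that of phagocytes and the female value near it.
In complex V, Atp5g3 had 985 and 763 CPM (1.29), Atp5a1 782 and 727 CPM (1.08) and Atp5b 506 and 538 CPM (0.939, 0.923 to 0.956). The pair that forms the catalytic head thus had ratios nearer to 1 than Atp5g3 of the rotor ring.
The 10 genes past 1.5-fold in favour of the male library were Ndufb10, Ndufa13, Uqcr11 and Ndufa4 among the subunits, the assembly factor Ndufaf2 (54.1 and 32.2 CPM, ratio 1.68) and the pseudogenes Uqcrh-ps1, Uqcrh-ps2, Atp5k-ps2, Ndufab1-ps and Atp5l-ps2. Atp5l-ps2 had the largest ratio, 5.22 (3.14 to 9.24), on 129 and 17 UMIs, and Uqcrh-ps1 had 1.87 (1.64 to 2.13).

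**Figure D4:**
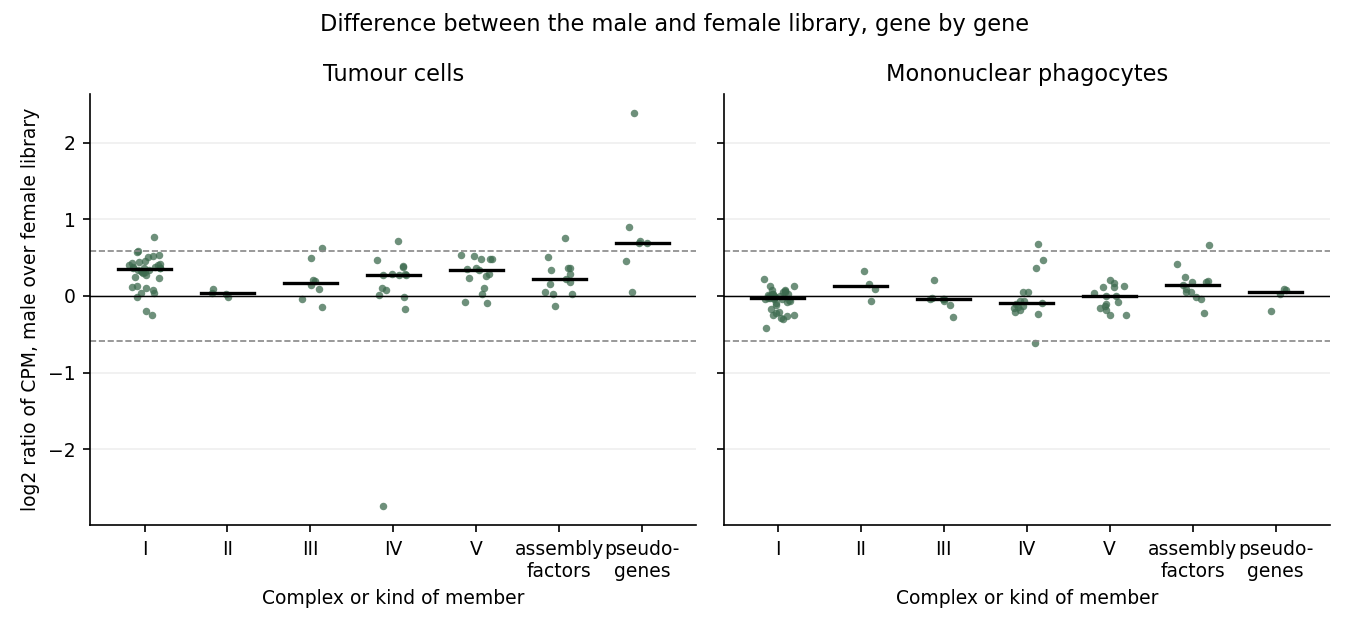
Log2 ratio of CPM, male over female library, for each chain gene with at least 100 UMIs in the 2 libraries together, by complex or kind; left, tumour cells (98 genes), right, mononuclear phagocytes (96 genes). Black bars are medians and dashed lines 1.5-fold; in tumour cells most points of complexes I, III, IV and V lie above 0 and those of complex II near 0, while in phagocytes they lie on both sides of 0.

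Tumour cells of the libraries did not fall evenly into clusters. Clusters 18 (led by Cenpf, Birc5 and Rrm2, genes of dividing cells), 22 (Map1lc3a, Serpina3n, Enpp2) and 25 (Fgb, Itih2) held mostly male cells, and clusters 19 (Akr1c18, Cryab and the hypoxia genes Ero1l and Adm) and 20 (Anln, Prr11, Hmmr, genes of dividing cells) mostly female ones. In each of the 6 clusters with at least 100 gated cells in each library the male sum was higher, with ratios from 1.08 to 1.18 and a geometric mean of 1.14, an alternative chosen after the data were seen. Cluster 18 had 20642 CPM (male) and 17706 CPM (female), cluster 19 had 14594 and 12721 CPM, cluster 20 had 18537 and 16444 CPM, and cluster 22 had 15131 and 12775 CPM. Members with a ratio above 1 numbered 75 of 94 in cluster 18, where 46.4% of all genes did, and 71 of 94 in cluster 19, where 43.1% did. Within every one of these clusters complex II had a ratio below 1, from 0.907 to 0.985, against 1.03 in all tumour cells. No counting interval is given for these complex II ratios, so whether each differs from 1 was not tested. For the chain sum the interval was 1.05 to 1.12 in cluster 23, which had the lowest ratio. It was 1.17 to 1.20 in cluster 22, which had the highest. Cluster 23, with a median of 1433 and 1386 UMIs per gated cell, is shallow and led by mitochondrial ribosomal RNA.

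The chain level was higher in dividing tumour cells. Cells with a UMI of both Mki67 and Top2a, which mark the cell cycle, numbered 2292 of 4738 in the male and 1455 of 3407 in the female library. They had 19618 CPM against 15416 CPM in the other tumour cells in males, and 16215 against 12896 CPM in females. Cells that lacked both genes gave a male to female ratio of 1.13, and 3 genes rather than 10 past 1.5-fold in favour of males, alternatives chosen after the data were seen. Cells with both Adm and Ero1l, hypoxia genes, had 17830.2 CPM against 18232 CPM in males and 14617 against 14892 CPM in females, close to the other cells. Cluster 19, which these genes lead, was lower, at 14594 CPM against 18515 CPM for all other male tumour cells and 12721 against 15946 CPM in females. Deeper cells also had more chain RNA per UMI, from 14707 CPM in the shallowest group of 3 equal groups to 19496 CPM in the deepest in males and from 12891 to 15854 CPM in females. A gate that needs UMIs of both its genes favours deeper cells, and the part of depth in these gate differences was not tested. The libraries had medians of 10965.5 and 11020 UMIs per tumour cell.

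**Figure D5:**
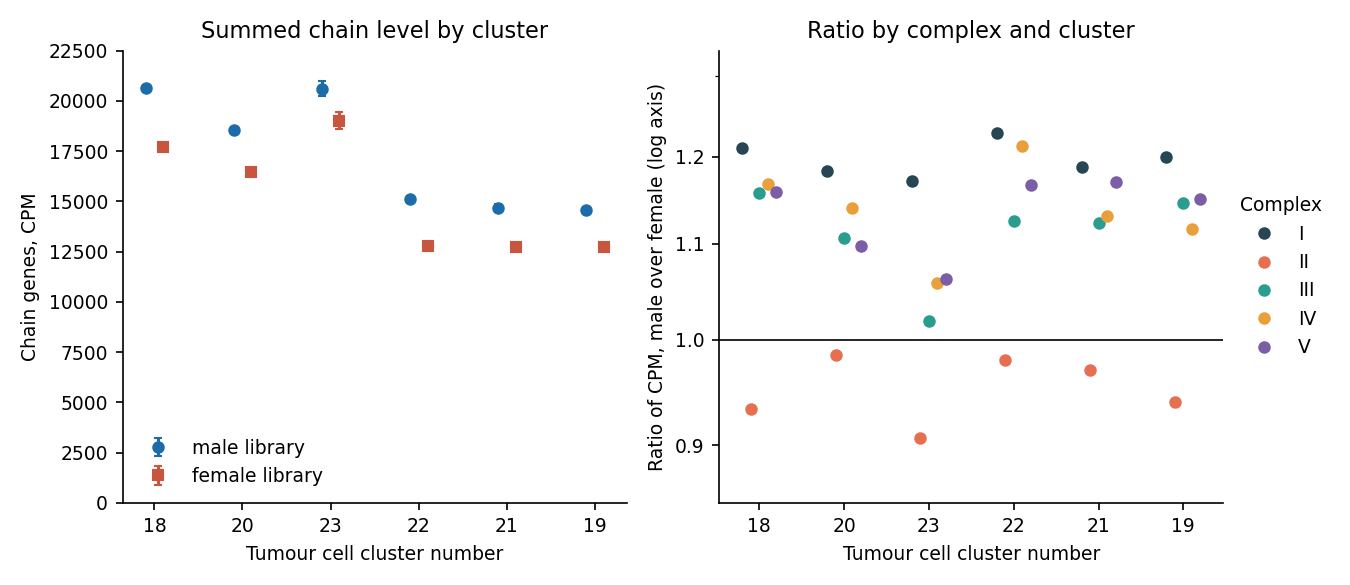
Left, summed chain level (CPM, with exact 95% Poisson intervals) in 6 tumour cell clusters of the male (circles) and female (squares) libraries; right, ratio of male over female CPM (log axis) by complex in each cluster. The male value is higher in each cluster, and complex II lies below 1 in all 6.

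Within complex I, the 7 core subunits that are measured here and shared with bacterial enzymes and the 29 accessory subunits are given apart, a split made after the values were seen. The core sum had a male to female ratio of 1.11 (1.09 to 1.13) in tumour cells and the accessory sum 1.29 (1.28 to 1.30). All 29 accessory subunits had a ratio above 1 and 4 of the 7 core subunits did. In phagocytes the values were 0.975 and 0.963, with overlapping intervals. Core genes have longer transcripts, with a median of 977 bases against 629. The length of a gene is here the median over its annotated protein-coding transcripts, short partial ones included. It can differ from the length of the main transcript. Up to 2000 bases, median ratios in tumour cells also fell with transcript length, a check added after the values were seen. Below 600 bases the median log2 ratio was 0.37 for 36 chain genes, 0.20 for 730 other genes and 0.21 for 92 genes of the ribosomal protein set, which was taken by symbol. From 600 to 1000 bases it was 0.28 for 35 chain genes, 0.08 for other genes and 0.19 for ribosomal protein genes. From 1000 to 2000 bases it was 0.0674 for 20 chain genes, 0.02 for other genes and 0.0734 for 16 ribosomal protein genes. From 2000 to 4000 bases it was 0.33 for 6 chain genes, -0.04 for other genes and -0.05 for 8 genes of the ribosomal protein set. Those 8 may be kinase genes that share the symbol letters, which was not checked. By this length chain ratios did not fall steadily. The lengths limit this: Atp5g1 is placed at 2675.5 bases and Ndufs1 at 651. Whether the bins hold with main transcripts was not tested. Over 78 subunits the correlation of log2 ratio with length was -0.32 by rank and -0.15 by Pearson r on log length. The chain medians lay above those of other genes in each of these bins. They lay above those of ribosomal protein genes except from 1000 to 2000 bases. The part of length in their difference between libraries was not tested further.

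In phagocytes the libraries were nearly even. The chain sum was 14184 CPM for males and 14550.1 CPM for females, a ratio of 0.975 (0.970 to 0.979). Complexes I, III and IV were slightly lower in the male library, at 0.964, 0.932 and 0.948, complex V was even at 1.00, and complex II was higher at 1.09 (1.07 to 1.12). Of 96 genes, 43 had a ratio above 1 (background 48.3%), 20 an interval wholly above 1 (background 25.2%) and 32 one wholly below (background 28.2%). Past 1.5-fold were 2 in favour of males (background 6.88%) and 1 in favour of females (background 6.47%). The 2 were Cox6b2, with 79 and 55 UMIs, and Sdhaf1, with 24.2 against 15.2 CPM and a ratio of 1.59 (1.39 to 1.81). The 1 was Cox7a1, with 10.8 against 16.6 CPM and a ratio of 0.653 (0.556 to 0.765).
Ndufa4 had 164 against 118 CPM, a ratio of 1.39 (1.32 to 1.46), and was thus higher in the male library in both large classes. Sdhc, a complex II anchor, had 177 against 142 CPM (1.252, 1.196 to 1.309). Ndufaf7 and Cox4i2 had ratios of 1.34 and 1.28. The lowest ratios after Cox7a1 were 0.745 for Ndufb4, 0.810 for Ndufa11, 0.815 for Ndufb9 and 0.825 for Uqcrq, a complex III subunit with 263 against 319.5 CPM.
The libraries' phagocytes also fell into different clusters, 5 (Retnla, Ear2) and 9 (Cx3cr1, C6) in males and 13 (Cdh1, Ccl24) and 16 (Atp6v0d2, Mmp13, Arg1) in females. Over the 5 clusters with at least 100 gated cells in each library the ratio ran from 0.842 to 1.03, with a geometric mean of 0.943.

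In the remaining classes with at least 100 cells in each library the summed ratio was 1.05 (0.993 to 1.12) in neutrophils, an interval that includes 1, 1.07 (1.04 to 1.11) in CD8 T cells and 1.09 (1.05 to 1.13) in conventional CD4 T cells. In neutrophils the direction turned under 4 alternatives, with ratios of 0.903 to 0.933. Of 25 neutrophil genes with enough UMIs, 16 had a ratio above 1 (background 47.0%). Cox7b was past 1.5-fold in favour of males (2.30, 1.27 to 4.59, on 113 and 12 UMIs, background 6.35%), and Ndufv3 (0.578) and Uqcrh (0.656) in favour of females (background 10.1%). With classes taken from clusters the Cox7b ratio was 0.903, so its direction depends on which cells are called neutrophils. Cox8a had 614 and 449.96 CPM in neutrophils, a ratio of 1.36 (1.10 to 1.71).
In CD8 T cells 39 of 55 genes had a ratio above 1 (background 53.4%), and in conventional CD4 T cells 35 of 46 (background 55.2%). In CD8 T cells 3 genes were higher in the male library (background 7.05%), among them Ndufb7 (1.78, 1.22 to 2.65) and Atp5j2 (1.76, 1.18 to 2.74), and 1 in the female library (background 5.89%), Uqcrc1 (0.541, 0.375 to 0.790). Ndufa9 had the next lowest ratio, 0.776.
In conventional CD4 T cells 1 gene, Ndufa10, was higher in the male library (1.79, 1.22 to 2.695, background 6.54%) and 0 in the female one (background 5.52%). Atp5b had a ratio of 1.45, and the lowest ratios were 0.742 for Cox7a2l and 0.841 for Cox7b. In CD8 and conventional CD4 T cells the counts past 1.5-fold were thus near or below the background, while the counts above 1 exceeded it. Both kinds of count describe single libraries of few cells.
Of the 25 genes measured in all 5 classes, 4 had a ratio above 1 in each, where 10.1% of all 945 genes so measured did: Atp5a1 (1.08 to 1.15), Atp5j (1.12 to 1.43), Atp5o (1.03 to 1.40) and Cox8a (1.04 to 1.38). None of the 25 was below 1 in each, where 9.95% of all genes were. The immune classes come from the same pair of libraries, so they are not separate observations.

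Other mitochondrial and energy genes, taken from lists chosen for this pathway, were set beside the chain in tumour cells. Mitochondrially encoded chain genes had a male to female ratio of 1.20 in tumour cells, 1.21 in phagocytes and 1.37 in neutrophils. In tumour cells 7 of the 10 tested had an interval above 1, with mt-Nd2 at 1.39, while mt-Co1 went the other way at 0.896; mt-Co2 and mt-Atp6, at under 4 CPM, are close to not captured. Chain genes outside the prefixes gave 1.20 in tumour cells, with Usmg5 (1.44) and Atpif1 (1.42), a subunit and the inhibitor of ATP synthase, at the top and cytochrome c, Cycs (0.763), and Cyc1 (0.884) at the bottom. Assembly factors outside the prefixes gave 1.07, the tricarboxylic acid cycle 0.992, and protein import and carriers 0.996. The regulators of mitochondrial biogenesis gave 1.05, with Ppargc1a, a coactivator of this programme, at 2.18 and 1.05 CPM, the largest ratio of its list at 2.08.
Glycolysis genes were lower in the male library, with a ratio of 0.833 in tumour cells and 0.689 in phagocytes. Hypoxia genes gave 0.705 and 0.710, with Adm at 83.4 and 199 CPM and Ero1l at 819 and 1744 CPM in tumour cells. Of 12 hypoxia genes, 5 were past 1.5-fold in favour of females in tumour cells (background 6.9%) and 1, Car9 (105 and 39.4 CPM), in favour of males (background 7.23%). The ribosomal protein set, most of it with short transcripts like the chain's, gave 1.10 in tumour cells and 0.932 in phagocytes. Over all tumour cells, the nuclear chain difference thus went with one in mitochondrially encoded genes. Glycolysis and hypoxia genes differed in the opposite direction. In all phagocytes, mitochondrially encoded, glycolysis and hypoxia genes differed in the same directions, but the nuclear chain sum did not. Tumour clusters varied. In cluster 19 hypoxia genes had 9925 (male) and 8886 CPM (female), and glycolysis genes 13340.5 and 11503 CPM. In cluster 20 both lists were also higher in males. In clusters 18, 22 and 23 both were lower in males, and in cluster 21 the hypoxia genes alone. Mitochondrially encoded genes were lower in males in cluster 23. In phagocyte cluster 16 each of these lists went the other way. In cluster 9 the hypoxia genes did, but its female value rests on 30 cells, fewer than the other cluster comparisons required.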

How the data were processed

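Whole-transcriptome libraries of 4 cell pools were made on the BD Rhapsody system, per the labels. The deposited values are UMI counts per gene and cell, not normalised. Tools listed in the submitters' processing notes are UMI-tools, Seurat and CASAVA 1.8, with mm10 as the build; the sources used here give no aligner. Counts come from 3' ends, so levels of different genes may not be on one scale. Isoform shares and ratios of mitochondrially encoded to nuclear RNA set UMIs of different genes against each other and carry this limit.

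The cell filter kept barcodes with 500 UMIs and 250 genes or more and up to 25% of UMIs from the mitochondrial genome. Classes were gated by detected marker genes. Cells with more than a set number of markers of certain other classes were left out, and no doublet caller was run. Gated cells could thus carry some markers of other classes. Tumour cells had a median of 3 fibroblast markers in each library, and neutrophils 2 (male) and 3 (female) phagocyte markers. Clusters were made with the Leiden method (scanpy 1.11.5, leidenalg 0.10.2; 2000 variable genes, 30 components, 15 neighbours, resolution 1.0). Counts were summed per class and library (Python 3.11.15, numpy 2.4.6, pandas 2.3.3) and divided by the class total. Intervals are 95% exact Poisson for levels and exact binomial for ratios (scipy 1.17.1). A ratio was called at 1.5-fold for genes with at least 100 UMIs in the 2 pools. A count of 0 was set to 3 in a ratio and never made that pool the higher one. The ratio script was tested on simulated counts. Gene positions are from GENCODE vM21.

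The members and lists were chosen with earlier results of these data known. Named genes were the 3 with most UMIs in each complex, the 5 largest and 5 smallest ratios between libraries in tumour cells and phagocytes (2 and 2 in other classes), and the 12 with the widest range over classes. Others were named after their values were seen. A gene that this rule names is not reported here. Alternatives changed the cell filter, denominator, depth, gate, scaling and thresholds.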

Additional observations from a re-analysis of the deposited data

How the results depend on the processing

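No paired analysis was possible because each combination of sex and CD45 fraction has 1 library, and leaving a library out was not possible for the same reason. The tumour, phagocyte and neutrophil levels, class ratios and sums described above kept their order under the alternatives run, except that the tumour to phagocyte ratio in females and the male to female ratio in neutrophils crossed 1. Values that moved beyond their counting interval, or counts beyond 1.5 times, follow; the sex after a count names the library with the higher level, and the cause was not tested. 

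With cells of at least 1000 UMIs, 500 genes and at most 15% mitochondrially encoded UMIs, the chain level was 18133 CPM in tumour cells of the male library and 7137 CPM in neutrophils of the male library. Levels stood at a ratio of 0.503 for neutrophils to phagocytes in males. Past the fold threshold were 0 in neutrophils (male) and 0 in neutrophils (female). Without mitochondrially encoded and ribosomal protein genes in the total, the chain level was 20081 CPM in tumour cells of the male library, 16166 CPM in tumour cells of the female library, 15606 CPM in phagocytes of the male library, 15952 CPM in phagocytes of the female library and 6918 CPM in neutrophils of the male library. The ratio of levels was 0.443 for neutrophils to phagocytes in males, 0.410 for neutrophils to phagocytes in females and 1.29 for tumour cells to phagocytes in males. The male to female ratio was 1.24 in tumour cells. With cells thinned to 1000 UMIs, the chain level was 16896 CPM in tumour cells of the male library, 14073 CPM in tumour cells of the female library, 13948 CPM in phagocytes of the male library, 14178 CPM in phagocytes of the female library and 5719.9 CPM in neutrophils of the male library. Levels stood at a ratio of 0.410 for neutrophils to phagocytes in males, 1.21 for tumour cells to phagocytes in males and 0.993 for tumour cells to phagocytes in females. The male to female ratio was 1.201 in tumour cells, 0.984 in phagocytes, 0.933 in neutrophils, 1.02 in CD8 T cells and 1.04 in CD4 T cells. Past the fold threshold were 0 in tumour cells (female), 0 in phagocytes (male), 0 in phagocytes (female), 0 in neutrophils (female), 1 in CD8 T cells (male), 0 in CD8 T cells (female), 0 in CD4 T cells (male) and 1 in CD4 T cells (female). As a mean over cells, the chain level was 17029 CPM in tumour cells of the male library, 14153 CPM in tumour cells of the female library, 13864 CPM in phagocytes of the male library, 14199 CPM in phagocytes of the female library and 5586 CPM in neutrophils of the male library. Levels stood at a ratio of 0.403 for neutrophils to phagocytes in males, 1.23 for tumour cells to phagocytes in males and 0.997 for tumour cells to phagocytes in females. The male to female ratio was 1.203 in tumour cells, 0.925 in neutrophils, 1.03 in CD8 T cells and 1.04 in CD4 T cells. With classes taken from clusters, the chain level was 18050.2 CPM in tumour cells of the male library, 14771 CPM in tumour cells of the female library, 14624 CPM in phagocytes of the female library and 5944 CPM in neutrophils of the male library. The ratio of levels was 0.418 for neutrophils to phagocytes in males and 1.27 for tumour cells to phagocytes in males. The male to female ratio was 1.22 in tumour cells, 0.903 in neutrophils and 1.03 in CD8 T cells. The genes past the fold threshold numbered 0 in neutrophils (male), 1 in CD8 T cells (male), 0 in CD8 T cells (female), 0 in CD4 T cells (male) and 2 in CD4 T cells (female). With 1 more marker in the gate, the chain level was 18329.9 CPM in tumour cells of the male library and 14834 CPM in tumour cells of the female library. The ratio of levels was 1.29 for tumour cells to phagocytes in males and 1.02 for tumour cells to phagocytes in females. The male to female ratio was 1.24 in tumour cells. The genes past the fold threshold numbered 1 in neutrophils (female) and 2 in CD4 T cells (male). Without the 5% of cells with most UMIs, the chain level was 17783 CPM in tumour cells of the male library, 14396 CPM in tumour cells of the female library, 13998 CPM in phagocytes of the male library, 14333 CPM in phagocytes of the female library, 5431 CPM in neutrophils of the male library and 5897 CPM in neutrophils of the female library. The ratio of levels was 0.388 for neutrophils to phagocytes in males, 0.411 for neutrophils to phagocytes in females, 1.27 for tumour cells to phagocytes in males and 1.00 for tumour cells to phagocytes in females. The male to female ratio was 1.24 in tumour cells and 0.921 in neutrophils. The genes past the fold threshold numbered 0 in phagocytes (female), 1 in neutrophils (female) and 1 in CD4 T cells (female). Without assembly factors and pseudogenes, the chain level was 17604 CPM in tumour cells of the male library, 14339 CPM in tumour cells of the female library, 13854 CPM in phagocytes of the male library, 14247 CPM in phagocytes of the female library and 6500.0 CPM in neutrophils of the male library. The ratio of levels was 1.27 for tumour cells to phagocytes in males and 1.01 for tumour cells to phagocytes in females. The genes past the fold threshold numbered 4 in tumour cells (male) and 1 in phagocytes (male). Scaled by the median ratio of all genes, the male to female ratio was 1.22 in tumour cells and 0.983 in phagocytes. Past the fold threshold was 1 gene in neutrophils (female). With the fold threshold lowered, genes past it numbered 45 in tumour cells (male), 6 in phagocytes (male), 2 in phagocytes (female), 4 in neutrophils (male), 8 in CD8 T cells (male), 2 in CD8 T cells (female), 12 in CD4 T cells (male) and 1 in CD4 T cells (female). With genes of at least 20 UMIs, the genes past the fold threshold numbered 2 in phagocytes (female), 8 in neutrophils (male), 6 in neutrophils (female), 11 in CD8 T cells (male), 6 in CD8 T cells (female), 7 in CD4 T cells (male) and 3 in CD4 T cells (female).

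In tumour cells without a UMI of Mki67 or Top2a, chosen after the data were seen, the male to female ratio was 1.13 and the counts 3 (male) and 0 (female). Within clusters, also chosen after the data were seen, the ratio was 1.14 in tumour cells and 0.943 in phagocytes. Of 513 alternatives for 61 single-gene results, 448 stayed within the counting interval of the value given, 64 moved and 1 reversed: the Cox7b ratio in neutrophils, 0.903 with classes taken from clusters. Depth limits single genes in neutrophils and T cells most, where 25 to 55 chain genes reached 100 UMIs.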

Other observations

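Mitochondrially encoded chain RNA did not keep one ratio to nuclear chain RNA over classes. It was 4.05 (male) and 3.65 (female) times the nuclear sum in endothelial cells, 2.93 and 2.55 times in plasmacytoid dendritic cells, 2.56 and 2.07 times in phagocytes, 1.94 and 1.98 times in tumour cells and 1.68 and 1.29 times in neutrophils. The neutrophil value was thus the lowest of these on both sides, with the mitochondrial and the nuclear part low together. The endothelial values rest on 11 and 14 cells.

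Phagocyte subsets also differed in chain level. Dividing phagocytes (a UMI of Mki67 and of Top2a) had 15505 and 16275 CPM against 13626 and 14265 CPM in the other phagocytes. The part of depth in this difference was not tested. Cluster 16, led by Atp6v0d2, Mmp13 and Gpnmb, had the lowest level in both libraries, at 11499.9 and 13650.1 CPM. Cluster 5, led by Retnla and Ear2, had 14987 and 17040.4 CPM. Cluster 4, a cluster of shallow cells, had 16970 and 16433 CPM and was the only phagocyte cluster of those compared with a higher male value.

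In tumour cells, subunits whose promoter window holds the NRF1 letters had a median log2 male to female ratio of 0.28 (17 genes) and those without them 0.35 (48 genes). For the ETS letters the medians were 0.43 (16 genes) and 0.30 (49 genes).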
